A study of Mus musculus with 26 samples.

Results

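The Notch signalling genes Notch1, Notch2, Notch3 and Notch4 (receptors), Dll1, Dll3, Dll4, Jag1 and Jag2 (ligands) and Hes1 (a target gene) were followed across mouse cells and testis in which the amount of Tex10 had been changed. These 10 genes, of 53978 in the largest table, were picked because Notch4 was among the largest decreases after 2 days of dTAG13. The set was thus chosen by the measured values of day 2 dTAG13 against DMSO. All 10 were listed in the tables of both cell experiments and 9 in the testis table, where Notch3 was not analysed. A mean of at least 1 over a table's libraries was reached by 9 genes in each cell experiment and by 8 in testis, with Dll4 below it in all 3 tables.

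Notch receptors are cleaved when a ligand on a neighbouring cell binds them, and the released intracellular part joins the DNA-binding protein Rbpj and Mastermind co-activators in the nucleus to switch on genes such as Hes1, a transcriptional repressor. Most ligands activate receptors on a neighbouring cell, while Dll3 is known mainly for acting inside the cell that makes it. The pathway is known for patterning the early embryo, and Notch4 is best known from endothelium.

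The series measured bulk RNA in 26 libraries, in 3 experiments that ask what Tex10, a nuclear protein known from embryonic stem cells and from ribosome maturation, does in germ cell formation. In the first, epiblast-like cells (EpiLC, untreated) of strain 129Sv/J were turned into primordial germ cell-like cells (PGCLC) and collected at day 2 and day 4 with DMSO, the solvent, or with 500 nM dTAG13, a molecule that sends a tagged protein to degradation (n = 2 for each of the 5 groups). In the second, untreated 129Sv/J EpiLC and day 2, day 4 and day 6 PGCLC came from 1 empty-vector line and from 2 clones that overexpress Tex10, with 1 library of each line at each stage. In the third, untreated testes of C57BL/6N mice with a Tex10 conditional knockout (cKO) were set against wildtype testes (n = 2 each). The labels give neither the tagged allele, the sorting of the cells, the Cre driver nor the age of the mice, and nothing says that replicates were separate cultures, so p-values measure only the spread between these libraries. In bulk RNA, fewer cells of a type and less RNA per cell cannot be told apart.

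Libraries held 5055362 to 8564563 reads assigned to genes, so that 1 read was worth 0.0996 to 0.187 of the deposited unit, CPM (reads relative to library size) scaled by TMM, a correction of library size. Tex10 mRNA in the overexpressing clones was above the empty vector in 8 of 8 libraries (log2 fold change 1.47, limma adjusted p = 2.14e-11) and was lower in cKO testis (-1.02, limma adjusted p = 0.00318). Under dTAG13 it was -0.14 at day 2 (limma adjusted p = 0.322) and -0.51 at day 4 (limma adjusted p = 0.000576); the molecule acts on the protein, so mRNA does not check the labels there. The summed level of 9 PGCLC markers was 71.0 to 73.3 in EpiLC, 296 to 327 at day 4 in DMSO and 268 to 276 at day 4 in dTAG13, against 1431 to 1675, 125 to 135 and 126 to 132 for 6 EpiLC markers. Of the 9 PGCLC markers 6 passed at day 4 under dTAG13, 4 lower and 2 higher, with a median log2 fold change of -0.60. Beside them 41.8% of all genes passed in this comparison, 26.0% lower and 15.8% higher. Xist, the RNA of X inactivation, stood at 129 to 138 in untreated EpiLC, 5.02 to 5.41 in day 2 DMSO and 250 to 253 in day 2 dTAG13, and at 1.72 to 2.99 and 94.2 to 115 at day 4.

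Notch4 and Notch3 are both on chromosome 17 and stood out under dTAG13, Notch4 lower and Notch3 higher, with the ligand Jag2 higher as well, so their start regions are shown for comparison. Each runs from 250 bases before to 50 bases after the start of transcription (RefSeq, GRCm38.p6, gene strand, 5′ to 3′), with capitals marking a match to AP-2, the letters GCCNNNGGC. AP-2 is the family of Tfap2c, a germ cell factor. The regions are chr17:34564045-34564344 on the plus strand for Notch4, chr17:32166841-32167140 on the minus strand for Notch3 and chr12:112929446-112929745 on the minus strand for Jag2.
Notch4: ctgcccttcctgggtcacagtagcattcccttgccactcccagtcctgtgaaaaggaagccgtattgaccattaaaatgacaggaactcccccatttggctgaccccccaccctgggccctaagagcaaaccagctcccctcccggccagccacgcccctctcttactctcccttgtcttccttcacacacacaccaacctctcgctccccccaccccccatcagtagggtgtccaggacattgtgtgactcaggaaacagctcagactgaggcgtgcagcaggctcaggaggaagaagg
Notch3: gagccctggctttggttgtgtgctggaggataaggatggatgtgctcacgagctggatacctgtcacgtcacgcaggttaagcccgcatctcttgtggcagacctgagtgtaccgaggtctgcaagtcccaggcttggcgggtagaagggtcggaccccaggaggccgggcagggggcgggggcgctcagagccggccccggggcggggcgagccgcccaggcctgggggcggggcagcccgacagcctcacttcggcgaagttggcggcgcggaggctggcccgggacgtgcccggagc
Jag2: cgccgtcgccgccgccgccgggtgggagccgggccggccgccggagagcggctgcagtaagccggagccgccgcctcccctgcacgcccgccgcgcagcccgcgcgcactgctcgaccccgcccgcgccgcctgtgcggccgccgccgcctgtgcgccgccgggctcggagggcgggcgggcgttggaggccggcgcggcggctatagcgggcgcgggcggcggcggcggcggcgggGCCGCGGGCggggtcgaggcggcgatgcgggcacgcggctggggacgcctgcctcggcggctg
The Notch4 region holds 5 CG dinucleotides at 58.3% G and C, near the median of 7 and 52.7% over 32851 promoters of this length. Notch3 holds 25 at 70.0%, and Jag2 63 at 86.0%. On either strand, GTGGGAA, the letters that Rbpj is known to bind, was in 0 of the 10 windows found for 9 of the 10 genes (Dll1 has 2; Hes1 has no entry), against 6.38% of all promoters. The AP-2 letters read the same on the opposite strand; they were in 1 of the 10, that of Jag2, against 16.59% of all. A match says only that these letters are in the window.

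Notch4 was far lower in dTAG13 than in DMSO, while Notch3, Jag2 and Jag1 rose and Hes1 fell by less. The gene lies at chr17:34564268-34588503 on the plus strand (mm10, GENCODE vM21), and a processed pseudogene on the opposite strand, Gm20462, overlaps it. Notch4 stood at 10.3 and 11.4 TMM-scaled CPM in EpiLC. At day 2 it was at 41.1 and 38.4 in DMSO against 6.37 and 4.15 in dTAG13, and at day 4 at 59.5 and 89.0 in DMSO against 8.65 and 4.77 in dTAG13. The dTAG13 libraries were below every DMSO library and also below the untreated EpiLC, and those of day 2 and day 4 overlapped each other. At day 2, which chose the set, the mean was 7.56-fold lower in dTAG13, a log2 fold change of -2.73 (SE 0.24) on the log2(value + 1) scale used throughout, and the rank was 4 from the lowest of 16605 genes. At day 4, in libraries that the choice did not use, the mean was 11.1-fold lower, with a log2 fold change of -3.31 (SE 0.24, limma adjusted p = 4.41e-10), again at rank 4 from the lowest. The SE and p-value rest on a spread estimated over all libraries of the experiment, those of day 2 included. Over 11 other settings the day 4 change stayed called, with limma, edgeR or DESeq2 adjusted p from 3.24e-32 to 8.31e-05.

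**Figure D1:**
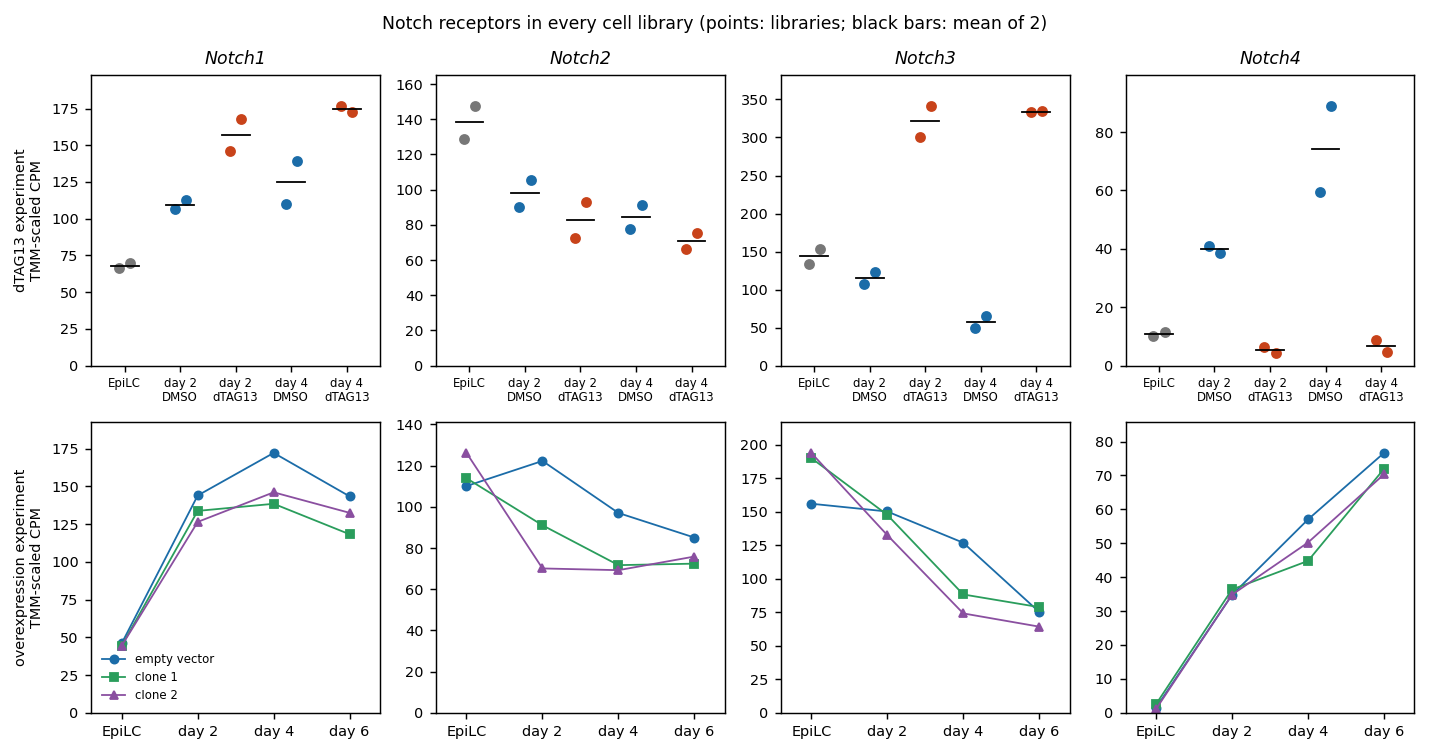
The 4 Notch receptors in every cell library, as TMM-scaled CPM on linear axes from 0. In the upper row points are libraries of the dTAG13 experiment and bars the mean of 2; in the lower row lines join the 4 stages of the empty-vector line and of clones 1 and 2. Notch4 lies between 4.15 and 8.65 in the dTAG13 libraries and Notch3 between 301 and 342, while in all 3 lines below Notch4 climbs with the stage.

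At day 4, 7 of the 9 tested genes passed limma's test at an adjusted p of 0.05, 5 higher and 2 lower in dTAG13. In the same comparison 41.8% of all genes passed, 15.8% higher and 26.0% lower, so a call by itself is common. The median log2 fold change over the 9 was 0.49, against -0.13 over all genes on the deposited scale. Without Notch4, which led to the choice of the set, 6 of 8 passed, 5 higher and 1 lower, with a median of 0.80. Scaling by the median ratio brought the median over all genes to -0.03. Under this scaling the log2 fold change was -3.20 for Notch4 (limma adjusted p = 2.48e-09), 2.65 for Notch3 (limma adjusted p = 1.29e-12) and 2.79 for Jag2 (limma adjusted p = 7.97e-12). None of the 9 changed direction with that scaling, but it moves all genes by a similar small amount, so nothing is read from this.

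Notch3, the receptor known best from vascular smooth muscle, lies at chr17:32120820-32166852 on the minus strand and is overlapped by the antisense gene Gm17276. It was at 134 and 154 in EpiLC, at 107 and 123 in day 2 DMSO against 301 and 342 in day 2 dTAG13, and at 49.4 and 65.1 in day 4 DMSO against 333 and 334 in day 4 dTAG13. In the DMSO cells it went down with time, whereas every dTAG13 library stood above every EpiLC library. The day 4 mean was 5.83-fold higher in dTAG13 (log2 fold change 2.54, SE 0.12, limma adjusted p = 9.12e-13), and the day 2 log2 fold change was 1.47 (SE 0.12). Whether the change was larger at day 4 than at day 2 was not tested.

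Notch1, at chr2:26457903-26516663 on the minus strand, is the most widely studied receptor. It read 110 and 140 in day 4 DMSO and 177 and 173 in day 4 dTAG13, with 107 and 112 against 146 and 168 at day 2. The groups did not overlap at either day, and the difference was far smaller than that of Notch3 (day 4 log2 fold change 0.49, SE 0.12, limma adjusted p = 0.0019; day 2 log2 fold change 0.51). Notch2, the other broadly expressed receptor, was the receptor that did not pass at day 4. It read 77.7 and 91.0 against 66.0 and 75.5 at day 4 (log2 fold change -0.25, SE 0.13, limma adjusted p = 0.143), where each dTAG13 library was below both DMSO libraries.

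**Figure D2:**
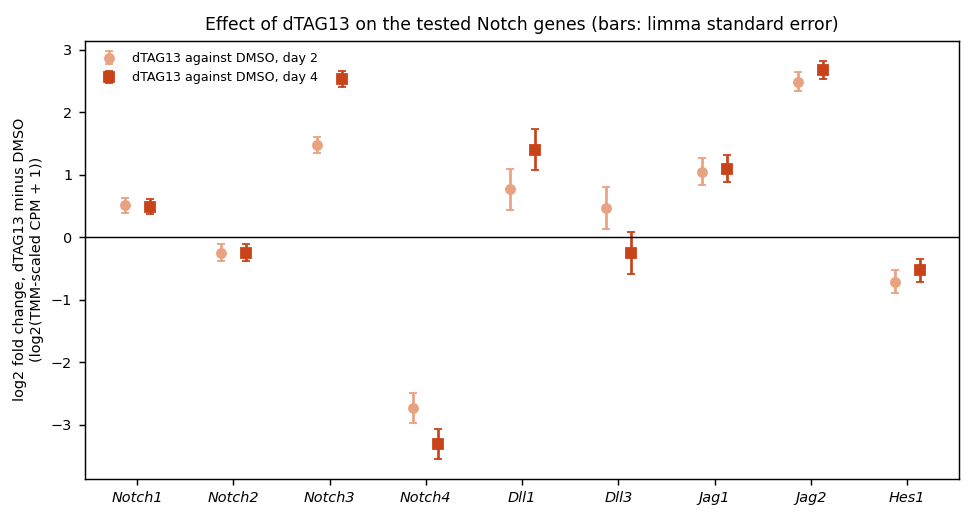
Log2 fold change of the 9 tested genes, dTAG13 minus DMSO, on the log2(value + 1) scale, at day 2 (circles) and day 4 (squares), with limma's standard error. Notch4 is the lowest at both days, Jag2 and Notch3 are the highest at day 4, and the day 2 values are those that chose the set.

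Divided by exon length, so that genes can be compared, the receptors changed places. In EpiLC Notch3 made up 48.4% of the summed length-scaled level of the 4 receptors and Notch4 3.66% (means of 2 libraries). In day 4 DMSO, Notch4 had 26.0 to 29.6% and Notch3 21.5 to 21.6%. In day 4 dTAG13, Notch4 had 0.969 to 1.77% and Notch3 67.7% in each library. The 4 receptors were thus of similar share in day 4 DMSO, and Notch4 was the smallest in day 4 dTAG13.

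**Figure D3:**
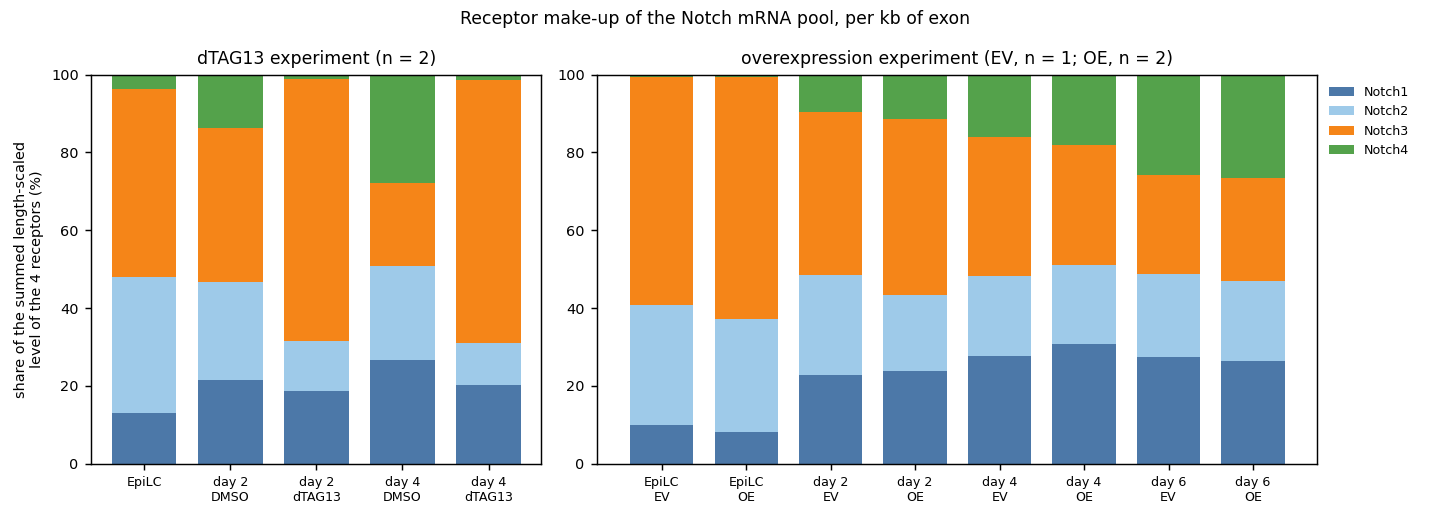
Share of each receptor in the summed level of the 4 receptors per kb of exon, as the mean of each group, with the dTAG13 experiment on the left and the overexpression experiment on the right (EV, empty vector; OE, clones). Notch3 takes 67.7% in day 4 dTAG13 and Notch4 27.8% in day 4 DMSO; on the right the Notch4 share goes from 0.566% in EpiLC to 25.9% at day 6 in the empty-vector line.

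Among the ligands the Jagged genes rose under dTAG13. Jag2 (chr12:112907819-112929776, minus strand) was at 16.1 and 19.3 in EpiLC, at 15.6 in both day 2 DMSO libraries against 85.8 and 99.4 in day 2 dTAG13, and at 12.8 and 11.6 in day 4 DMSO against 85.8 and 80.6 in day 4 dTAG13. Untreated and DMSO libraries spanned 11.6 to 19.3, and both dTAG13 groups stood far above them. Its day 4 mean was 6.84-fold higher (log2 fold change 2.68, SE 0.15, limma adjusted p = 5.28e-12), with a day 2 log2 fold change of 2.49 (SE 0.15). Per length, Jag2 had 47.1 to 61.7% of the 5 ligands in day 4 DMSO and 77.3 to 80.0% in day 4 dTAG13.

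Jag1 (chr2:137081456-137116644, minus strand) was at 4.94 and 6.67 in day 4 DMSO against 14.1 and 12.9 in day 4 dTAG13, and at 11.3 and 9.77 against 22.9 and 22.7 at day 2. The groups did not overlap, and the day 4 mean was 2.32-fold higher (log2 fold change 1.10, SE 0.22, limma adjusted p = 0.000286; day 2 log2 fold change 1.05). Dll1 (chr17:15367354-15376872, minus strand), a Delta ligand of somite and neural patterning, rested on few reads, 1 and 2 in day 4 DMSO and 21 and 8 in day 4 dTAG13. That is a ratio of 14.3 with a 95% interval of 4.42 to 73.2 that covers counting error only, and the fitted log2 fold change of 1.40 (SE 0.33, limma adjusted p = 0.00172) fell short of the threshold without dTAG13 replicate 1 (0.98, limma adjusted p = 0.0502; range over all settings 0.000153 to 0.0502). Dll3 had 4 to 17 reads in each library of the 2 day 4 groups, which overlapped (log2 fold change -0.25, limma adjusted p = 0.574). Dll4, the ligand of sprouting vessels, had 0 to 4 reads in every library of this experiment and was not tested.

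**Figure D4:**
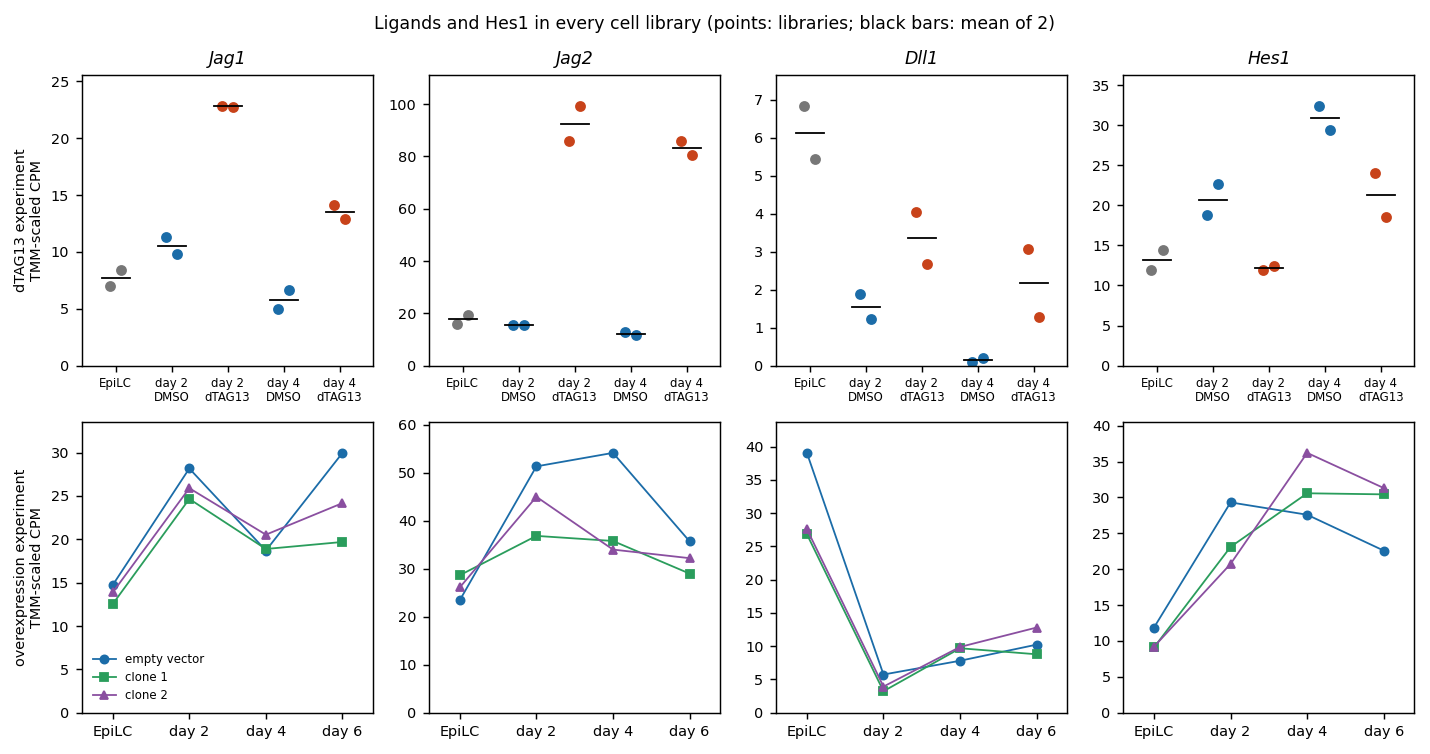
Jag1, Jag2, Dll1 and Hes1 in every cell library, as TMM-scaled CPM on linear axes from 0, laid out as for the receptors (points, libraries; bars, mean of 2; lines, empty-vector line and 2 clones). Jag2 lies between 80.6 and 99.4 in the dTAG13 libraries and at 19.3 or below in the others of that experiment; Hes1 at day 4 lies between 18.6 and 24.1 in dTAG13 and between 29.4 and 32.4 in DMSO.

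Hes1 (chr16:30064384-30067796, plus strand) was at 11.9 and 14.4 in EpiLC, at 18.7 and 22.7 against 11.97 and 12.4 at day 2, and at 32.4 and 29.4 against 24.1 and 18.6 at day 4. It was below DMSO in every dTAG13 library of its day. The day 2 log2 fold change was -0.71 (SE 0.18) and that of day 4 -0.52 (SE 0.18, limma adjusted p = 0.0261). The day 4 call was lost in 6 of 11 other settings, among them median-ratio scaling, edgeR, DESeq2 and the absence of DMSO replicate 1 or dTAG13 replicate 2, with adjusted p over all settings from 0.0192 to 0.244.

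Other genes of the pathway moved in both directions at day 4. Of 43 listed, 36 were tested and 15 passed, 9 higher and 6 lower, with a median log2 fold change of 0.06. That share is close to the 41.8% of all genes (15.8% higher and 26.0% lower). Of the 36, Dlk1, Dlk2, Hey1 and Hey2 reached a table mean of 1 only through the libraries of the treatment where they are higher; of the other 32, 13 passed, 7 higher and 6 lower. In the nuclear complex 3 of 5 tested genes were higher and 0 lower: the DNA-binding Rbpj (0.38, limma adjusted p = 0.0172) and the co-activators Maml1 (0.70, limma adjusted p = 4.18e-05) and Maml3 (1.86, limma adjusted p = 4.03e-05). The Fringe genes, whose enzymes add sugars to the receptors, did not move together: Lfng was at 1.38 (limma adjusted p = 0.00138) and Mfng at -1.90 (limma adjusted p = 7.78e-05), and Rfng, at 0.04, did not pass (limma adjusted p = 0.896).
Among inhibitors and turnover genes, leaving out Dlk1 and Dlk2, 3 of 9 were higher and 1 lower. Dlk2, a ligand-like protein, was at 2.68, but like Hey2 it reached the table mean of 1 only through the dTAG13 groups, so its value is a description. The Deltex gene Dtx4 was at 1.83 (limma adjusted p = 6.66e-07) and Fbxw7, which marks the intracellular part for degradation, at 1.27 (limma adjusted p = 1.69e-08), while Dtx1 was at -2.57 (limma adjusted p = 1.77e-07). Of 7 tested genes for receptor cleavage 2 were lower, the presenilin Psen2 (-0.79, limma adjusted p = 0.0109) and the protease Adam17 (-0.31, limma adjusted p = 0.0379), and 2 of 6 for ligand endocytosis were lower, Epn1 and Epn2 (-0.39, limma adjusted p = 0.0144, and -0.42, limma adjusted p = 0.0055). With 15.8% of all genes higher and 26.0% lower in this comparison, nothing is read from the counts of these small lists.
The other target repressors rested on few reads. Hey2 had 3 and 6 reads in day 4 DMSO and 14 and 22 in day 4 dTAG13 (log2 fold change 1.35, limma adjusted p = 0.00274). Its table mean of 1 came only through the dTAG13 groups, where it is high, so nothing is read from its call. In the same libraries Hey1 had 12 and 20 against 1 and 11 (log2 fold change -0.56, limma adjusted p = 0.253). Hes5, Hes7 and Heyl had at most 5 reads in any library of this experiment and were not tested. Nrarp, an inhibitor that Notch itself is known to induce, was at 5.26 and 3.39 against 6.45 and 6.99 at day 4 (log2 fold change 0.56, limma adjusted p = 0.106). At day 2 it was at 2.26 and 2.99 against 7.93 and 7.89, a log2 fold change of 1.30, higher in both dTAG13 libraries where Hes1 was lower in both.

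At day 2, where the contrast chose the set, 5 of the 8 tested genes other than Notch4 passed the same threshold, 4 higher and 1 lower, beside 33.6% of all genes (13.7% higher and 19.9% lower), and nothing is read from that count. The 5 were the genes Notch1, Notch3, Jag1, Jag2 and Hes1, each in its day 4 direction. The 8 include Dll3, which did not pass and reached a table mean of 1 only through the dTAG13 libraries. Of the 36 other pathway genes 10 passed, 8 higher and 2 lower, the highest being Dlk2 at 2.76, Hey2 at 1.96 and Maml3 at 1.69 and the lower ones Hey1 at -0.999 (5 and 4 reads in dTAG13) and Mfng at -0.96. Hey1, like Hey2, passed the filter on low values only through the group where it is high, here the DMSO libraries. Without Dlk1, Dlk2, Hey1 and Hey2, 7 of 32 passed, 6 higher and 1 lower. The day 2 and day 4 libraries were separate for both treatments.

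Summed markers of some other tissues differed between the same groups. The day 4 counts below stand beside 15.8% of all genes that passed as higher and 26.0% as lower. Of 10 endothelial markers the summed level was 313 to 325 in day 4 dTAG13 against 139 to 142 in DMSO (day 2, 215 to 224 against 109 to 123), and 4 of 5 tested passed as higher at day 4. Of the 10, Kdr, Tie1, Emcn and Erg were under 1 in every library of both day 4 groups, and Flt1 in every library of day 4 DMSO. Cdh5 and the rest reached 1 in at least 1 library of each day 4 group, and none was at 0 throughout a group. In every library of both day 2 groups Cdh5, Tie1, Emcn and Erg were under 1. For 9 neural markers the sums were 207 to 244 against 116 to 141 at day 4, with 2 of 6 tested higher and 3 lower, and Neurog1, Neurog2 and Dcx under 1. Sums over 5 macrophage markers (20.53 to 23.4 against 11.1 to 16.8), 6 spermatocyte markers (24.8 to 25.5 against 10.95 to 11.6) and 10 markers of primitive streak and presomitic mesoderm (18.8 to 19.5 against 16.4 to 16.97) were also higher at day 4. In these lists 1 of 2, 1 of 3 and 1 of 3 tested genes passed, each higher. The median log2 fold change of the 3 tested spermatocyte markers was 0.04. Sums were lower for 8 Sertoli cell markers (30.5 to 33.4 against 42.2 to 51.3) and 6 spermatogonia markers (52.8 to 64.4 against 69.8 to 73.9). Their members went both ways. Of 4 tested Sertoli cell markers 2 passed as higher and 1 as lower, with a median log2 fold change of 0.48. Of 3 tested spermatogonia markers 1 passed as higher and 2 as lower. The sums of 6 Leydig cell markers overlapped (18.3 to 18.9 against 10.8 to 19.8), and 6 spermatid markers summed to at most 1.17. The part of these markers in the Notch gene differences was not tested.

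Along the normal course of specification, Notch4 rose and Notch3 went down, though not every step of Notch3 passed. In DMSO cells 4 of the 8 tested genes other than Notch4 passed between EpiLC and day 2, 2 in each direction, beside 26.2% of all genes (11.5% higher and 14.7% lower). Notch1 (0.68, limma adjusted p = 0.000153) and Hes1 (0.62, limma adjusted p = 0.0161) were higher, and Notch2 (-0.50, limma adjusted p = 0.00815) and Dll1 (-1.49, limma adjusted p = 0.00184) were lower. Notch3 was at -0.32 and did not pass (limma adjusted p = 0.065). Those EpiLC were untreated, so stage and solvent change together. The Notch2 call was lost without EpiLC replicate 2 or day 2 replicate 1 (limma, edgeR or DESeq2 adjusted p over all settings 0.00182 to 0.122), and that of Hes1 without EpiLC replicate 1 or day 2 replicate 2 (0.012 to 0.165). From day 2 to day 4, 3 of 8 passed, beside 5.52% of all genes (2.44% higher and 3.08% lower): Notch3 (-1.005, limma adjusted p = 2.02e-05), Dll1 (-1.14, limma adjusted p = 0.0469) and Jag1 (-0.77, limma adjusted p = 0.036), all lower. Without DMSO replicate 1 of day 2 the count was 1, as it was without replicate 2 of day 2 or replicate 1 of day 4, and the Dll1 call was lost without any 1 of the 4 libraries. Dll1 rested on 15 and 9 reads at day 2 against 1 and 2 at day 4, a ratio of day 2 to day 4 of 10.1 with a 95% interval of 3.07 to 52.4 that covers counting error only. Notch4, whose day 2 libraries chose it, was at log2 fold changes of 1.78 and then 0.86, given with no test.
Of the other pathway genes, 13 of 36 passed at the first step (5 higher and 8 lower; without Hey1, 12 of 35) and 5 of 36 at the second (2 higher and 3 lower). Neurl1a, a ubiquitin ligase for ligands, was the highest at the first step (1.11, limma adjusted p = 6.45e-06), followed by Hey1 (1.06) and Lfng (1.04, limma adjusted p = 0.0185). Hey1 reached a table mean of 1 only through the day 2 DMSO libraries, where it is high, so nothing is read from its call in any comparison with them. The lowest were Rfng (-0.83, limma adjusted p = 0.00155), Adam10 (-0.83, limma adjusted p = 9.78e-05) and Epn2 (-0.66, limma adjusted p = 0.00019). At the second step Dtx4 (-1.65, limma adjusted p = 4.12e-05), Lfng (-1.31, limma adjusted p = 0.0158) and Maml2 (-1.27, limma adjusted p = 0.0161) were lower and Adam10 (0.56, limma adjusted p = 0.0159) and Furin (0.51, limma adjusted p = 0.0329) higher.

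The lines of the overexpression experiment, whose libraries the choice did not use, showed the climb of Notch4 again. In EpiLC it was at 1.502 in the empty vector and at 2.53 and 1.10 in clones 1 and 2. It stood at 34.8, 36.4 and 34.8 at day 2, at 57.0, 44.8 and 50.2 at day 4 and at 76.6, 71.9 and 70.3 at day 6, in the same order of lines. No stage overlapped the one before it. From EpiLC to day 2 the mean over the 3 lines was 20.6-fold higher (log2 fold change 3.78, SE 0.16, limma adjusted p = 5.84e-18, higher in 3 of 3 lines). The later steps were small, 0.50 from day 2 to day 4 (limma adjusted p = 0.0193) and 0.52 from day 4 to day 6 (limma adjusted p = 0.038), and both missed the threshold in several other settings. The first was lost without clone 2 or without the empty-vector line, with limma, edgeR or DESeq2 adjusted p over all settings from 0.00285 to 0.114, and the second without either clone, from 0.00484 to 0.244.

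Between EpiLC and day 2, 8 of the 9 tested genes passed in these lines, 5 higher and 3 lower, beside 46.3% of all genes (24.1% higher and 22.1% lower). Besides Notch4, Notch1 went from 44.4 to 46.0 up to 126 to 144 (log2 fold change 1.56, limma adjusted p = 3.15e-15), Hes1 from 9.10 to 11.9 up to 20.7 to 29.3 (1.19, limma adjusted p = 9.19e-07) and Jag1 from 12.5 to 14.7 up to 24.7 to 28.2 (0.89, limma adjusted p = 1.35e-05). Dll1 fell from 26.8 to 39.1 down to 3.24 to 5.75 (-2.61, limma adjusted p = 1.58e-11). Jag2 rose from 23.4 to 28.6 up to 36.8 to 51.3 (0.74, limma adjusted p = 7.4e-05), where DMSO cells of the first experiment gave -0.17 (limma adjusted p = 0.455); the experiments were normalised separately and their difference was not tested. Notch2 and Notch3 were called lower at -0.34 and -0.32 (limma adjusted p = 0.0183 and 0.0263), calls lost without either clone (Notch2 without clone 2, -0.09).
From day 2 to day 4, 4 of 9 passed, beside 23.0% of all genes (11.1% higher and 11.9% lower). Notch3 was lower (-0.60, limma adjusted p = 0.000343), Jag1 lower (-0.42, limma adjusted p = 0.0409), and Dll1 higher (0.95, limma adjusted p = 0.00102), together with Notch4. In DMSO cells of the first experiment Dll1 went the other way over this step (-1.14, limma adjusted p = 0.0469), on few reads. The difference between the experiments was not tested. The Jag1 call was lost without any 1 of the 3 lines and that of Dll1 without clone 1, so that the count was 2 without either clone. From day 4 to day 6, 2 of 9 passed, beside 6.88% of all genes (3.49% higher and 3.38% lower). These were Notch4 and Dll3, the latter from 1.504 to 2.61 down to 0.326 to 0.753 (limma adjusted p = 0.0364). Without clone 1 or clone 2 the count was 0. Notch3 was at -0.37 and did not pass (limma adjusted p = 0.0528). Of the 36 other pathway genes tested, 18, 9 and 1 passed over the 3 steps. Highest at the first were Neurl1a (1.87, limma adjusted p = 2.29e-12), Furin (1.60, limma adjusted p = 6.85e-10) and Hey1 (1.52, limma adjusted p = 7.51e-05), and lowest Dlk1 (-0.89, limma adjusted p = 0.014), Maml2 (-0.84, limma adjusted p = 0.0115) and Rfng (-0.55, limma adjusted p = 0.000961). At the second Hey2 (1.15, limma adjusted p = 0.00858), Maml1 (0.49, limma adjusted p = 0.00105) and Rbpj (0.46, limma adjusted p = 0.000245) were the highest and Dtx4 (-1.53, limma adjusted p = 8.65e-06), Lfng (-1.11, limma adjusted p = 0.00659) and Mfng (-0.80, limma adjusted p = 0.00858) the lowest. Dlk1 was the 1 of the last step (1.03, limma adjusted p = 0.03).

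Overexpression of Tex10 left Notch4 close to the empty vector. The log2 fold change over the 4 stages was -0.05 (SE 0.12, limma adjusted p = 0.843), higher in 3 of 8 clone libraries, and without clone 2 it was 0.03. Of the 9 tested genes 1 passed, beside 8.76% of all genes (4.54% higher and 4.22% lower). That gene was Notch2 (-0.28, SE 0.08, limma adjusted p = 0.0316), below the empty vector of its stage in 6 of 8 libraries. At day 2 Notch2 was at 122 in the empty vector and at 91.0 and 70.1 in the clones, whereas in EpiLC it was at 110 against 114 and 126. The call was lost without clone 1 or clone 2 (limma, edgeR or DESeq2 adjusted p over all settings 0.00186 to 0.221), with a single empty-vector line behind every value. Notch1 was lower in 8 of 8 libraries at -0.17 without passing (SE 0.06, limma adjusted p = 0.0915). Notch3 was at -0.13 over the stages (SE 0.09, limma adjusted p = 0.418). By stage it was at 0.30 in EpiLC and -0.64 at day 4, and Jag2 at 0.21 and -0.62. The authors' deposited log2 fold changes at day 4 were -0.64 for Notch3 and -0.63 for Jag2. A single stage holds 1 empty-vector library, so stages were not tested here. Each line gave 4 libraries, which the main fit took as independent. With the line as a random replicate block Notch1 (limma adjusted p = 0.0113) and Jag2 (-0.24, limma adjusted p = 0.0282, against 0.157 without the block) passed as well as Notch2. With a single empty-vector line, neither fit measures the spread between such lines, so nothing is read from the added calls. Among the other pathway genes 2 of 36 passed, both lower, the co-repressor Spen (-0.28, limma adjusted p = 0.000776) and the ligand ubiquitin ligase Mib1 (-0.23, limma adjusted p = 0.0249).

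In testis Notch4 was not among the genes that differed. It read 17.5 and 19.6 in wildtype and 18.5 and 23.6 in cKO, groups that overlapped (log2 fold change 0.17, SE 0.20, limma adjusted p = 0.556). Of the 8 tested genes 4 passed, all higher in cKO, beside 29.1% of all genes called, 16.1% higher and 13.1% lower. Notch1 went from 8.22 and 6.28 to 16.3 and 12.7 (0.91, limma adjusted p = 0.0154) and Notch2 from 19.0 and 14.8 to 31.1 and 25.7 (0.72, limma adjusted p = 0.0136). Jag2 went from 9.76 and 7.53 to 14.1 and 16.7 (0.77, limma adjusted p = 0.0268), and Hes1 from 6.51 and 4.08 to 8.78 and 11.8 (0.86, limma adjusted p = 0.0416). Each of these 4 was higher in both cKO libraries than in either wildtype library.
Jag1 was lower in both cKO libraries, at 14.8 and 15.5 against 21.2 in each wildtype library, and did not pass (-0.46, SE 0.19, limma adjusted p = 0.0849). Dll1 and Dll3 did not pass, at -0.18 (limma adjusted p = 0.734) and 0.25 (limma adjusted p = 0.358). Dll4 had 0 and 2 reads in wildtype and 8 and 13 in cKO and was not tested here; the authors' deposited table gives it a log2 fold change of 2.96 with an adjusted p of 0.0127. The count of 4 became 0 without a variance trend, without cKO replicate 1 or without wildtype replicate 2, and 2 without cKO replicate 2.

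**Figure D5:**
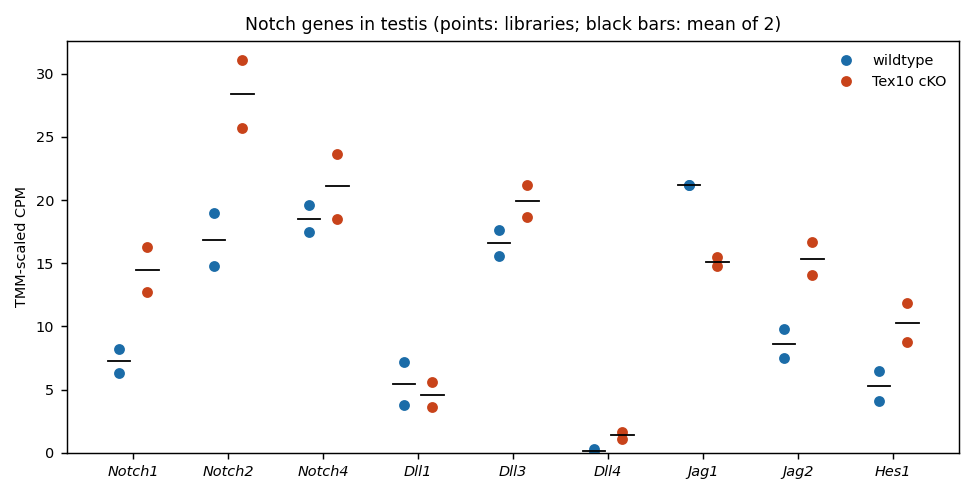
The 9 Notch genes listed in the testis table, as TMM-scaled CPM on a linear axis from 0, in wildtype and Tex10 cKO testis (points, libraries; bars, mean of 2). Notch1, Notch2, Jag2 and Hes1 are higher in both cKO libraries, Jag1 is lower in both, and the Notch4 groups overlap.

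Of 38 other pathway genes tested in testis 13 passed, 11 higher and 2 lower, beside 29.1% of all genes (16.1% higher and 13.1% lower). Without Dlk1 and Heyl, which reached a table mean of 1 only through the cKO libraries, where they are higher, 12 of 36 passed, 10 higher and 2 lower, a share near that of all genes. They included 5 of 10 for receptor cleavage, all higher. Largest of the 12 were Psen2 (1.56, limma adjusted p = 0.0076) and Dtx1 (1.31, limma adjusted p = 6.56e-05), and Rbpj was also higher (0.86, limma adjusted p = 0.0221). Spen (-0.97, limma adjusted p = 0.00401) and Neurl1a (-0.49, limma adjusted p = 0.0129) were lower. Markers of several cell types of the testis shifted in the same libraries. Sertoli cell markers summed to 1050 to 1254 in cKO and 394 to 467 in wildtype, with 8 of 8 called higher, and Leydig cell markers to 596 to 982 and 242 to 348, with 6 of 6 called higher. Macrophage markers summed to 73.2 to 96.5 and 43.0 to 48.5, spermatogonia markers to 252 to 258 and 145 to 158, and spermatid markers to 12543 to 13043 and 17025 to 19422, with 5 of 6 called lower. Sums overlapped for spermatocyte markers (415 to 469 and 439 to 455, 1 of 6 called, higher). They also did for endothelial markers (26.5 to 28.0 and 22.8 to 29.3, 1 of 8 called higher and 1 lower). The part of the marker shifts in the Notch gene differences was not tested.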

How the data were processed

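RNA was measured in bulk by sequencing in 26 libraries of 15 groups. Kits from NuGEN (dTAG13 and testis experiments) and Tecan (overexpression) were used, per the labels' protocols. Per the submitters' processing notes, Bowtie2 2.3.4.3, SAMtools 1.9, HTSeq 0.11.2, edgeR 3.26.8 and build mm10 were used; a strand setting is not given in the sources used here, so reads of overlapping antisense genes cannot be told apart. The authors deposited a normalised signal, CPM scaled by TMM, in 3 tables normalised separately, with their own log2 fold changes, p-values and adjusted p-values. Whole reads were recovered from the steps in the values (100.0% of values within 0.1 of a whole read), with 1 read the smallest step. This share holds for each library, day 4 DMSO replicate 2 (step 0.0996) included.

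Genes with a table mean of at least 1 were tested with limma 3.58.1 (R 4.3.3, variance trend) on log2(value + 1), with p-values adjusted by Benjamini and Hochberg over all 16605, 15255 or 20658 genes of a table. Stage comparisons in the overexpression table had the line as a block, since the same line gave each stage. The comparison of overexpression with empty vector was adjusted for stage. It fitted a single difference over the stages and counted the stages of a line as replicates. Called means an adjusted p under 0.05. Alternatives were a pseudocount of 0.1, no filter, median-ratio scaling, no variance trend, edgeR 4.0.16 (quasi-likelihood) and DESeq2 1.42.0 on recovered reads, blocks, and leaving out each library. On simulated reads 73% of 2-fold and 100% of 4-fold changes were recovered for day 4 dTAG13, and 70% and 100% for testis. The changed genes were few, had means well above the filter of 1 and shared a fixed spread. These shares thus do not cover genes of low level, such as Dll1 and Dll3 in the dTAG13 experiment. The 10 genes, the 6 pathway lists and the marker lists were chosen with earlier results of these data known; 1 marker is not reported here and was left out of its list. No p-value is given for the 10 genes at day 2 dTAG13 against DMSO, where counts past the threshold are descriptions only. None is given for Notch4 where day 2 libraries of that experiment are a side of the comparison. Each gene's spread was estimated over all groups of a table, so day 2 libraries do enter the spread behind the day 4 p-value of Notch4. The text names all 10 genes, the 3 largest called increases and decreases of other pathway genes per comparison, and the target repressors, Nrarp and Rbpj at day 4. At day 4 Maml1, Lfng, Fbxw7, Adam17, Epn1 and Epn2 were added after their values were seen. Also named are Rfng at day 4, Nrarp at day 2, Rbpj in testis and genes that reached the table mean only through their higher side. Exon lengths and positions are from GENCODE vM21.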

Additional observations from a re-analysis of the deposited data

Results flagged for a closer look

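The effect of Tex10 overexpression went in opposite directions at 2 stages for 7 of the 9 tested genes, with both clones above the empty vector at one stage and both below it at the other. Of all 15255 tested genes, 54.5% met the same description, so nothing is read from that count. Both clones of a stage share its 1 empty-vector library, and these differences were not tested. On the log2 scale the gap between the 2 stages was 0.73 for Notch2 (0.12 in EpiLC, -0.61 at day 2), 0.94 for Notch3 (0.30 in EpiLC, -0.64 at day 4) and 0.29 for Notch4 (0.03 at day 2, where the clones stood at 0.063 and 0.0021, and -0.26 at day 4). Among ligands it was 0.85 for Dll1 (0.29 at day 4, -0.56 at day 2), 0.51 for Jag1 (0.07 at day 4, -0.44 at day 6) and 0.83 for Jag2 (0.21 in EpiLC, -0.62 at day 4). For Hes1 it was 0.84 (0.43 at day 6, -0.40 at day 2). Dll4, too low to be tested, met the same description (0.58 at day 4, -0.52 at day 6) on 0 to 7 reads a library.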

How the results depend on the processing

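Of 802 alternative values for single genes, 706 kept their direction and side of the threshold, 81 lost the call, 5 gained it and 10 changed sign, all 10 on leaving out a library. The sign changes were in values that had not been called. Leaving out 1 library in turn, Dll3 ran from -0.565 to 0.0556 at day 4 under dTAG13 and from -0.128 to 0.492 from day 2 to day 4 in DMSO cells. Under overexpression Notch4 ran from -0.138 to 0.0324 and Hes1 from -0.0305 to 0.00505. From day 2 to day 4 in the vector lines Dll3 ran from -0.135 to 0.0434 and Jag2 from -0.217 to 0.0174, and from day 4 to day 6 Notch2 ran from -0.0865 to 0.0722. Dll1 in testis ran from -0.569 to 0.211.

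The number of called genes moved by over 1.5 times as follows; the cause was not tested. From day 2 to day 4 in DMSO cells, 3 became 1 with no filter and with no variance trend, and 1 to 2 without 1 library. Under overexpression, 1 became 0 with no filter and with no variance trend, 3 with the line as a random replicate block (Notch1, Notch2 and Jag2), and 0 without either clone. From day 2 to day 4 in the vector lines, 4 became 2 with no filter and with no variance trend, and 2 to 3 without 1 line. From day 4 to day 6, 2 became 1 with a pseudocount of 0.1, with no variance trend and with DESeq2, 0 with no filter and with no replicate block, and 0 to 1 without 1 line. In testis, 4 became 0 with no variance trend, 2 with DESeq2, and 0 to 4 without 1 library. Counts for dTAG13 at day 4 ran from 6 to 7 without 1 library and at day 2 from 4 to 5.

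Replicate numbers of the dTAG13 and testis experiments pair nothing in the labels, and the deviations of same-numbered libraries correlated by -0.07 (day 4), -0.02 (day 2), 0.12 (EpiLC to day 2), 0.09 (day 2 to day 4) and 0.12 (testis). A fit with the replicate number as a block gave 7, 5, 5, 3 and 4 called genes for these comparisons, in that order, against 7, 5, 4, 3 and 4 without it; the gain was Notch3 from EpiLC to day 2. With 2 libraries per group and 1 read worth 0.0996 to 0.187, Dll1, Dll3 and Dll4 in the dTAG13 experiment and Dll4 in testis are limited by depth.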

Other observations

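Genes whose level followed Notch4 most closely were sought among 14387 genes tested in both cell experiments, by the mean of Pearson's r over 10 and over 12 libraries on the log2 scale. The 5 highest were Kdm3b, a histone demethylase (mean r 0.99), Pim3, a kinase (0.97), Fbxo31 (0.97), the integrin Itga9 (0.97) and Hap1 (0.96). Of the 8 other tested members, Hes1 was at 0.84, Notch1 at 0.36, Jag1 at 0.04, Jag2 at -0.12, Notch2 at -0.32, Dll3 at -0.35, Dll1 at -0.73 and Notch3 at -0.85. Notch1, Jag1 and Jag2 had opposite signs in the 2 experiments, each negative over the 10 dTAG13-experiment libraries and positive over the 12 others. Notch2 and Dll3 did too, at 0.069 and 0.037 over the 10 and at -0.72 and -0.73 over the 12. The 10 include the day 2 libraries that chose Notch4, and all libraries share stage and treatment, so these are descriptions of the same groups.

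Of the 10 nearest genes around Notch4, 6 were tested in the dTAG13 experiment and 2 passed as lower at day 4: Btnl7-ps (-1.26, limma adjusted p = 0.000961) and Pbx2, a homeobox gene (-0.61, limma adjusted p = 0.00129). Beside them 26.0% of all genes passed as lower in this comparison and 41.8% in either direction, so nothing is read from that count. The other 4, Gpsm3, Ager, Rnf5 and Agpat1, ran from -0.36 to 0.22 and did not pass. In the authors' deposited table the day 4 log2 fold change of Notch4 was -3.46 and that of Jag2 2.77, and Notch1 (adjusted p 0.482) and Hes1 (adjusted p 0.278) did not pass there.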
